A study of Saccharomyces cerevisiae with 8 samples.

Results

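The comparison set 4 libraries of cells carrying [SMAUG+], from 2 independent inductions with 2 replicates each, against 2 libraries of cells in which VTS1 was deleted, so it used 6 of the 8 libraries of the series; they were chosen by their titles. Inductant 1 and inductant 2 had a wild-type genotype and had gone through 48 h of transient VTS1 overexpression from a plasmid, after which the plasmid was eliminated and the cells were passaged for several generations. The vts1 deletion cells were untreated. All groups shared the Saccharomyces cerevisiae background BY4741, a haploid MATa laboratory strain, and were harvested from 50 ml cultures in mid-exponential growth at an optical density of about 0.6. RNA was sequenced after removal of ribosomal RNA. The 2 groups differ both in the presence of the gene and in the history of overexpression, and the effects of these cannot be told apart here. The labels call the replicates biological without saying whether they were separate clones, so the p-values below measure the spread between replicate cultures within each group. The spread between the 2 inductions does not enter the p-values and standard errors given for their average. The 2 inductions were given equal weight. In pooled cultures, fewer cells with a transcript and less of that transcript per cell cannot be told apart.

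Vts1 is the yeast member of the Smaug family of RNA-binding proteins. Its SAM domain binds hairpins whose loop holds the letters CNGG, where N is any base, and it recruits the CCR4-NOT complex, which shortens poly(A) tails and starts the decay of the bound mRNA. [SMAUG+] is a heritable, protein-based state that appears after a transient excess of Vts1 and stays after the excess has gone. A cell without VTS1 makes no Vts1, either to bind RNA or to enter that state.

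The hairpins below show what a match to the motif looks like in transcripts that the results turn on: VTS1 itself, YIR016W, a transcript known from earlier work to be bound by Vts1, and YOR338W, the one gene among the 15 largest falls whose coding sequence holds such a hairpin. All are RNA-strand sequences written as DNA from RefSeq build R64 on the plus strand, with the 4 loop letters CNGG in capitals and the rest of the loop and its 5 closing base pairs in lower case. They lie at chrXV:1011533-1011548 (bases 345 to 360 of the VTS1 coding sequence), chrIX:382843-382856 (bases 216 to 229 of YIR016W) and chrXV:957867-957882 (bases 970 to 985 of YOR338W).
VTS1: agcagCTGGttctgct
YIR016W: tggcgCAGGcgcca
YOR338W: ccgttCAGGagaacgg

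The 6 libraries held 18431474 to 27501966 estimated counts over 6713 open reading frames, and 317 to 330 frames were at 0 in each. A count of 3, the upper limit that 0 observed counts allow, was 0.109 to 0.163 CPM here. CPM are counts scaled to a common library total, and all per-library values below are CPM after edgeR's TMM scaling, which corrects for differences in composition between libraries. The first principal component of the log2 CPM values carried 53.8% of the variance and placed the inductant libraries between -16.7 and -11.0 and the deletion libraries at 26.17 and 24.97. The second carried 14.99% and separated inductant 1 (8.98 and 11.9) from inductant 2 (-17.0 and -5.27). Of the markers of MATa cells, 5 of 7 could be tested, with a summed level of 373 to 422 TPM in the inductants and 504 and 468 TPM in vts1 deletion. MFA1 and MFA2 were at 0 in all 6 libraries. The cause was not tested, and these values are not read as absence of the MFA1 and MFA2 transcripts. Of the MATalpha markers, 3 of 4 could be tested, with a summed level of 25.02 to 32.6 TPM in the inductants and 24.9 and 24.0 TPM in vts1 deletion. LEU2, MET17 and URA3, which BY4741 lacks, were at 0 in all 6 libraries.

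VTS1 (YOR359W, chrXV:1011189-1012760, plus strand) followed the labels. It had 24.9 and 25.1 CPM in inductant 1, 36.5 and 29.7 CPM in inductant 2, and 0 and 0.10 CPM in vts1 deletion. The inductant libraries held 2528 VTS1 counts together and the deletion libraries 2, so that the level in vts1 deletion was 0.165% of that in the inductants (exact 95% interval 0.0199 to 0.596, counting error only). The 3 annotated genes on each side of VTS1 were checked because the deletion changes their surroundings. PDE2, the next gene downstream and the high-affinity cyclic AMP phosphodiesterase, was lower in the inductants, with 69.8 and 68.0 CPM in inductant 1, 74.5 and 67.2 CPM in inductant 2, and 117 and 120.1 CPM in vts1 deletion (log2 fold change -0.76 ± 0.056, SE, adjusted p = 1.06e-06). The groups did not overlap for it. PRE10, a proteasome subunit, was lower by a smaller margin (-0.28, adjusted p = 0.00396), and the call was lost without replicate 1 of vts1 deletion (adjusted p = 0.0513). SNX3 and PRT1 passed the test narrowly (-0.24 and 0.15, adjusted p = 0.0375 and 0.0333), and SNX3 kept its call in 1 and PRT1 in 2 of the 6 fits that left out 1 library each. PRT1 also turned to -0.030 when libraries were scaled by size only. HAP5 and CIR2, upstream of VTS1 like SNX3, gave -0.079 and -0.061 and were not called, CIR2 being called only with library size alone (-0.24, adjusted p = 0.00249). YIR016W was lower in the inductants, with 36.4 and 45.6 CPM in inductant 1, 32.1 and 33.5 CPM in inductant 2, and 61.6 and 57.0 CPM in vts1 deletion (log2 fold change -0.69 ± 0.090, adjusted p = 8.71e-05), and the groups did not overlap. Here "called" means an adjusted p below 0.05 in edgeR's quasi-likelihood test.

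Across the genome, 2752 of 6214 tested genes were called (44.3%). Of these, 1357 were higher in the inductants (21.8% of genes tested) and 1395 were lower (22.4%). Most differences were small: the median size among called genes was 0.38 on the log2 scale, and 226 called genes differed at least 2-fold, 101 higher and 125 lower. Tested against a fold change of 1.5, 241 genes passed (3.88%), 111 higher (1.79%) and 130 lower (2.09%). The 4 inductant libraries all lay on one side of both deletion libraries for 3443 genes (55.4%), above them for 1680 (27%) and below them for 1763 (28.4%). The balance of the calls depended on scaling. The TMM factors were 0.940 to 0.998 in the inductants and 1.083 and 1.086 in vts1 deletion. With library size alone, the median over all genes was -0.20 in place of -0.02, and 648 genes were called higher and 2588 lower, so that 20.0% of calls were higher in place of 49.3%. It also lowered the median of each gene list below by 0.17 to 0.18. Counts for the lists stand against the 21.8% of all genes called higher and 22.4% called lower, and a list's counts with library size alone or without 1 library follow where they moved by more than 1.5 times and at least 2 genes. Leaving out replicate 1 or replicate 2 of vts1 deletion left 1766 and 1733 calls, and 1400 genes were called in all 6 fits that left out 1 library each.

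**Figure D1:**
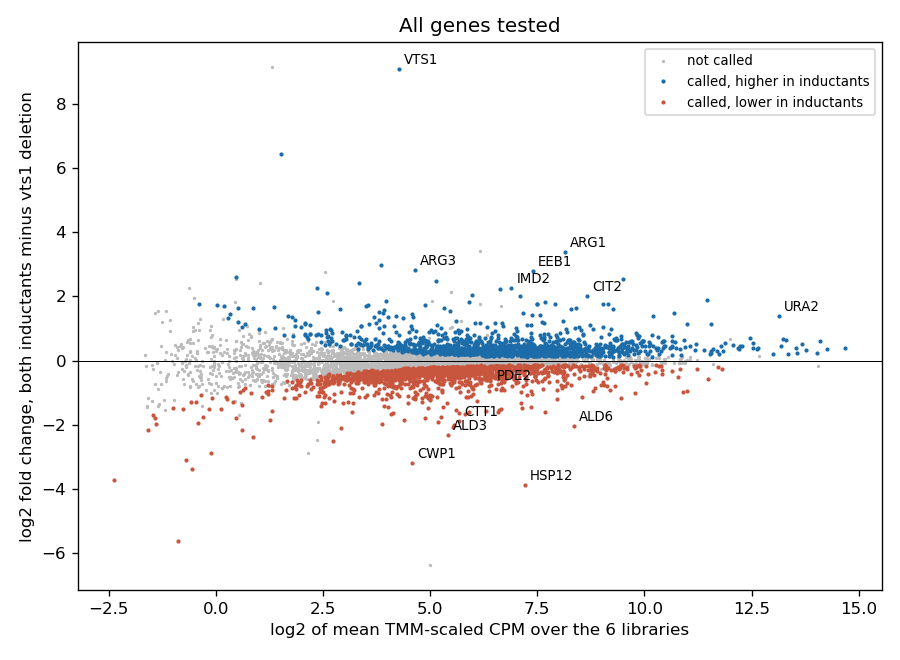
Log2 fold change of both inductants minus vts1 deletion (y axis) against the log2 mean TMM-scaled CPM over the 6 libraries (x axis), 1 point per gene tested, with the 1357 genes called higher in blue, the 1395 called lower in red and the others in grey. VTS1 stands highest among called genes, ARG1 is the highest labelled gene below it at 3.39 and HSP12 the lowest labelled one at -3.89. The unlabelled called point between VTS1 and ARG1 is YLL067C, a subtelomeric row whose groups overlap.

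The genes with the largest falls were led by stress and stationary-phase genes. HSP12, a membrane-stabilising small heat shock protein induced by nearly every stress, had 39.3 and 29.9 CPM in inductant 1, 19.2 and 20.5 CPM in inductant 2, and 394 and 379.6 CPM in vts1 deletion, a log2 fold change of -3.89 ± 0.089 (adjusted p = 6.03e-09). CTT1, the cytosolic catalase, had 27.2 and 35.8 CPM in inductant 1, 20.7 and 24.9 CPM in inductant 2, and 107 and 90.0 CPM in vts1 deletion (log2 fold change -1.87 ± 0.12, adjusted p = 6.28e-06). For both, every inductant library lay far below both deletion libraries, and inductant 2 lay lowest. ALD3, a stress-induced cytosolic aldehyde dehydrogenase, had 14.8 to 23.3 CPM in the inductants and 91.8 and 90.0 CPM in vts1 deletion (log2 fold change -2.30), and its near-identical neighbour ALD2, with which it can share reads, had 35.4 to 56.2 CPM in the inductants and 51.8 and 44.8 CPM in vts1 deletion and was not called (-0.28 with library size alone, adjusted p = 0.0408). FMP16, RTN2, which encodes a reticulon of the endoplasmic reticulum, and TKL2, a minor transketolase, gave log2 fold changes of -2.50, -1.75 and -1.85. These genes belong to the general stress response, the set driven by the transcription factors Msn2 and Msn4. Of the 62 tested genes of that list, 40 were lower in the inductants and 7 were higher (11.3% higher and 64.5% lower, beside 21.8% and 22.4% of all genes), with a median log2 fold change of -0.56 beside -0.02 over all genes. In the general stress list the counts became 4 higher and 34 lower without replicate 1 of vts1 deletion. Its summed level was 5715 to 8464 TPM in the inductants and 11876 and 12035 TPM in vts1 deletion. The 7 that rose included SPG4 (2.11), needed for survival in stationary phase, RGI1 (1.56), which acts in energy metabolism during respiratory growth, and HSP30 (0.86), a plasma membrane heat shock protein. The transcripts of MSN2 and MSN4 themselves were lower by less on the average of both inductants, with log2 fold changes of -0.28 and -0.27. For MSN4 the fold change was -0.0455 in inductant 1 and -0.50 in inductant 2 (adjusted p of the difference = 0.00472).

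Other large falls lay in the cell wall, in acetate and proline metabolism and in a ribosomal protein paralog. CWP1, a wall mannoprotein, had 5.79 and 8.62 CPM in inductant 1, 6.31 and 5.34 CPM in inductant 2, and 56.9 and 61.0 CPM in vts1 deletion (log2 fold change -3.17 ± 0.13, adjusted p = 1.66e-08). TIP1, a further mannoprotein, gave -1.67. ALD6, the main cytosolic acetaldehyde dehydrogenase and a source of NADPH, had 144 and 144 CPM in inductant 1, 197 and 168 CPM in inductant 2, and 656 and 664 CPM in vts1 deletion (log2 fold change -2.02 ± 0.057, adjusted p = 1.56e-09). PUT4, the proline permease, had 3.18 to 4.02 CPM in the inductants and 16.4 and 14.3 CPM in vts1 deletion (log2 fold change -2.09). RPS28B had 6.14 to 10.2 CPM in the inductants and 29.6 and 28.5 CPM in vts1 deletion (log2 fold change -1.99), whereas its paralog RPS28A had 92.7 to 108 CPM in the inductants and 110.4 and 106 CPM in vts1 deletion and was not called (-0.28 with library size alone, adjusted p = 0.0025). NCA3, which with NCA2 regulates expression of mitochondrial ATP synthase genes, gave -1.91, and ICS2, YGR079W and YOR338W, which have no role given here, gave -2.02, -2.08 and -1.79. For none of the genes in these 2 paragraphs that were called did an inductant library reach a deletion library, apart from HSP30, RGI1 and SPG4, for which no deletion library reached an inductant one.

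**Figure D2:**
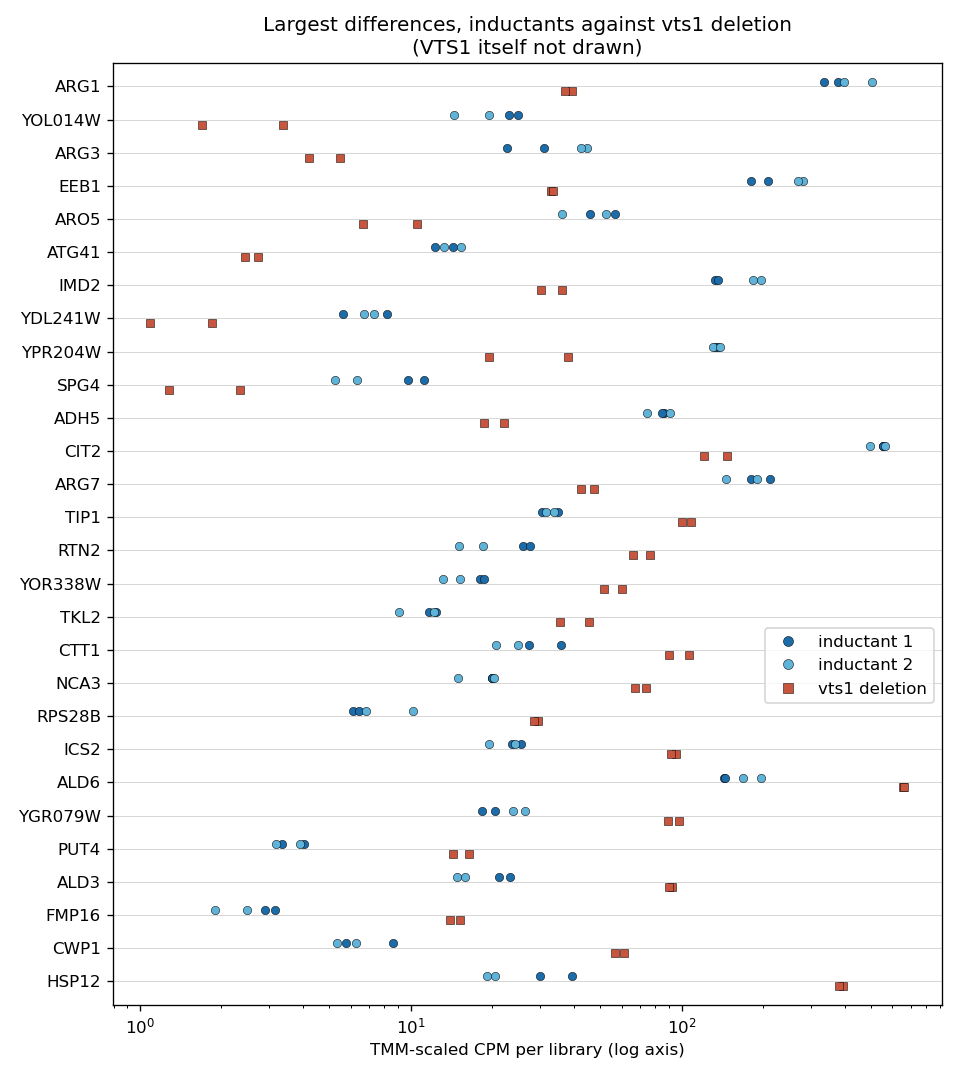
TMM-scaled CPM per library (log x axis) for genes with the largest differences by the naming rule that are named in the text, inductant 1 in dark blue, inductant 2 in light blue and vts1 deletion as red squares, VTS1 left out. ARG1 at the top has 337 to 503 CPM in the inductants against 39.5 and 37.0 CPM in vts1 deletion, and HSP12 at the bottom has 19.2 to 39.3 CPM in the inductants against 394 and 379.6 CPM in vts1 deletion; the blue and red points of a row do not overlap in any row.

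The stress response element bound by Msn2 and Msn4 has the core CCCCT. The core occurred, on either strand, in 21.6% of 5711 promoter windows, taken from 250 bases before to 50 bases after each start codon. It occurred in 59.7% of the general stress list, in 8 of the 15 genes with the largest falls (53.3%) and in 0 of the 15 with the largest rises. The list was written as targets of Msn2 and Msn4, and the 15 genes each way were picked from these data. Neither kind of share is therefore an independent test. Over all called genes the shares were 19.6% for those higher and 23.4% for those lower. The windows of HSP12 (R64, chrVI:107006-107305, plus strand, matches 232 and 190 bases before the start codon) and CTT1 (chrVII:654384-654683, plus strand, match 133 bases before it) are shown as those of the first stress genes described above, with the core in capitals. A match is a run of letters and not a measured binding site.
HSP12: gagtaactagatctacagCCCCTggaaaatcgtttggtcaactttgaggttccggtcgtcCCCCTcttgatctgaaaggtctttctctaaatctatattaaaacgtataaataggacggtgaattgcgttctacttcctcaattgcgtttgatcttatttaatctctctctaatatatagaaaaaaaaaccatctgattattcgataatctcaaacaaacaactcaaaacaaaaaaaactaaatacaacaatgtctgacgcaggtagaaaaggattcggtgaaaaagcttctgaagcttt
CTT1: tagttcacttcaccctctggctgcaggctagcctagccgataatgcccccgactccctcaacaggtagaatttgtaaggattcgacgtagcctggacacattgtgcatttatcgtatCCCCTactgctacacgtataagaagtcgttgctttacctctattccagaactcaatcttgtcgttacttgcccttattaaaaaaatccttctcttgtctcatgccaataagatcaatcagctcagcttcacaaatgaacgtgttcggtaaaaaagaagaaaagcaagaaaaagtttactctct

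The largest rises were led by arginine synthesis. ARG1, argininosuccinate synthetase, had 377 and 337 CPM in inductant 1, 399 and 503 CPM in inductant 2, and 39.5 and 37.0 CPM in vts1 deletion, a log2 fold change of 3.39 ± 0.12 (adjusted p = 3.51e-07). ARG3, ornithine carbamoyltransferase, had 31.1 and 22.7 CPM in inductant 1, 44.7 and 42.3 CPM in inductant 2, and 5.47 and 4.20 CPM in vts1 deletion (log2 fold change 2.81 ± 0.16, adjusted p = 4.76e-07). For each of these genes the lowest inductant library lay above the higher deletion library. ARG7, the mitochondrial ornithine acetyltransferase, had 146 to 211 CPM in the inductants and 47.6 and 42.6 CPM in vts1 deletion (log2 fold change 2.01). Other genes of the pathway were looked up after these values were seen and were called higher: ARG4 (1.83), ARG56, the row of ARG5,6 (1.77), ARG8 (1.18), CPA1 (1.12) and, with the smallest difference of those named, ARG2 (0.55), the first enzyme of the pathway. With the 2 naive libraries added to the fit, which then also set its estimate of the spread, ARG1, ARG2, ARG3, ARG4, ARG56 and CPA1 lost their calls at nearly the same fold changes (adjusted p = 0.0772 to 0.188), whereas ARG7 and ARG8 stayed called. CAR2, which breaks arginine-derived ornithine down, was lower (-0.99).

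**Figure D3:**
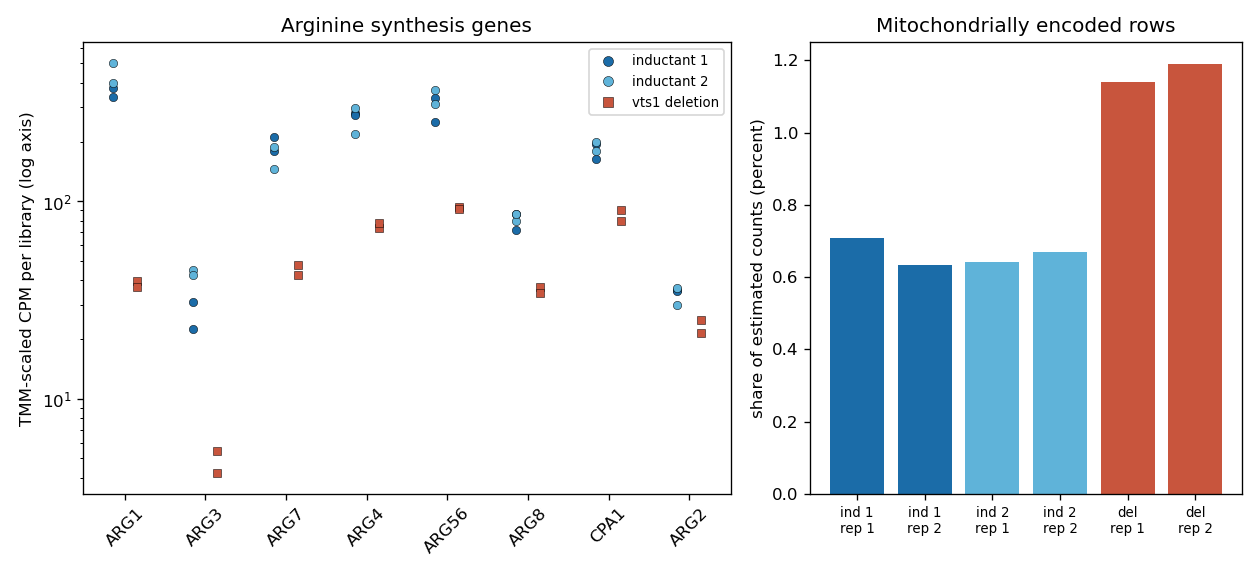
Left, TMM-scaled CPM per library (log y axis) for 8 genes of arginine synthesis, with inductant 1 in dark blue, inductant 2 in light blue and vts1 deletion as red squares; every inductant library lies above both deletion libraries for every gene drawn. Right, share of estimated counts in the mitochondrially encoded rows per library (percent), 0.634% to 0.707% in the inductants against 1.14% and 1.19% in vts1 deletion.

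Amino acid synthesis as a whole followed the same direction. Of the 71 tested genes of the list, 53 were higher in the inductants and 8 lower, with a median log2 fold change of 0.55, and the summed level was 19813 to 21033 TPM in the inductants and 14786 and 14686 TPM in vts1 deletion. In the amino acid list the counts became 50 higher and 4 lower without replicate 1 of vts1 deletion and 51 and 5 without replicate 2 of vts1 deletion. The branched-chain branch, again picked out after its values were seen, had LEU1 (791 ± 66.3 CPM in the inductants and 257 ± 2.50 CPM in vts1 deletion, SD, n = 4 and 2, log2 fold change 1.62), the branched-chain aminotransferase BAT1 (404 ± 42.1 CPM in the inductants and 132 ± 1.07 CPM in vts1 deletion, 1.61) and the isopropylmalate synthases LEU9 and LEU4 (1.41 and 0.996). ILV2, the first enzyme shared by isoleucine and valine synthesis, gave 1.03, and HIS4, HOM3 and ARO3, of histidine, threonine and aromatic synthesis, gave 1.40, 1.10 and 1.24. GCN4, the transcription factor that activates most of these genes, had 1124 and 1186 CPM in inductant 1, 1096 and 1089 CPM in inductant 2, and 750.2 and 729.5 CPM in vts1 deletion (log2 fold change 0.60 ± 0.048, adjusted p = 2.12e-06). Its activity is set mainly by translation of its mRNA, which was not measured. The 8 genes that fell were led by the glycine cleavage system: GCV1 had 49.4 to 71.2 CPM in the inductants and 174 and 169 CPM in vts1 deletion (log2 fold change -1.59), and GCV2 and GCV3 gave -1.20 and -0.63.

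The Gcn4 core TGACTC, searched on both strands like the other, occurred in 8.07% of all promoter windows and in 56.3% of the amino acid list. Its share was 11.2% among genes called higher and 6.75% among genes called lower. It occurred in 2 of the 15 genes with the largest rises (13.3%) and in 1 of the 15 with the largest falls (6.67%). Gcn4 activates most genes of the amino acid list, which was chosen with earlier results of these data known. The share in that list is therefore not an independent test. The window of ARG7 held 1 match 152 bases before the start codon, and ARG4 and HIS4 held matches as well, whereas those of ARG1 and ARG3 held no such letters. The windows of GCV1, GCV2 and GCV3, which were lower in the inductants, held matches too. The ARG7 window (R64, chrXIII:396330-396629, minus strand) is shown as the arginine gene among the largest rises that has the core, in capitals.
ARG7: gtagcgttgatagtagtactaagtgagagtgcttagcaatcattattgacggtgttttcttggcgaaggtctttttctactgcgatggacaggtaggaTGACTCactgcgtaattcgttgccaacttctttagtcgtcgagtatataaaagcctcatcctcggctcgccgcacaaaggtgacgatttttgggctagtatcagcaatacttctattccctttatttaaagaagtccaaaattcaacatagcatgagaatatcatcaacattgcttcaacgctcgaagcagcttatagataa

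Rises outside amino acid synthesis included EEB1, an acyltransferase that makes medium-chain fatty acid ethyl esters, with 209 and 179.9 CPM in inductant 1, 281 and 269.5 CPM in inductant 2, and 33.0 and 33.5 CPM in vts1 deletion (log2 fold change 2.80 ± 0.074, adjusted p = 1.41e-09). CIT2, the peroxisomal citrate synthase, had 555 and 553 CPM in inductant 1, 497 and 562 CPM in inductant 2, and 121 and 147 CPM in vts1 deletion (log2 fold change 2.02 ± 0.088, adjusted p = 2.47e-07). IMD2, an IMP dehydrogenase of guanine nucleotide synthesis that shares sequence with other IMD copies, had 133 to 196 CPM in the inductants and 30.2 and 36.1 CPM in vts1 deletion (log2 fold change 2.27). Both deletion libraries lay below all 4 inductant libraries for each of these. ADH5, an alcohol dehydrogenase, and ATG41, which acts in autophagy, gave 2.05 and 2.41. YOL014W, ARO5 and YDL241W, given here with no role, gave 2.97, 2.46 and 2.25. YPR204W, a subtelomeric helicase-like row that shares reads with near-identical copies, had 137 and 133 CPM in inductant 1, 130.4 and 138 CPM in inductant 2, and 38.0 and 19.5 CPM in vts1 deletion (2.22, adjusted p = 0.0132), and lost its call without replicate 1 of inductant 1 and without either replicate of inductant 2 (adjusted p = 0.0509 to 0.0578).

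Respiratory genes were lower in the inductants in both genomes. Of the 41 tested nuclear genes of oxidative phosphorylation, 32 were lower and 0 higher, with a median of -0.45; all 41 fold changes were negative. CYC1, cytochrome c, had 8.49 to 10.1 CPM in the inductants and 20.5 and 19.1 CPM in vts1 deletion (log2 fold change -1.09), NDE1, an external NADH dehydrogenase, had 140.2 to 167 CPM in the inductants and 286 and 281 CPM in vts1 deletion (-0.89), and COX5B, a cytochrome oxidase subunit, gave -0.86. Of the 20 tested mitochondrially encoded rows, 17 were lower and 0 higher, with a median of -0.71. ATP6, a subunit of ATP synthase, had 37.8 and 35.3 CPM in inductant 1, 45.3 and 49.3 CPM in inductant 2, and 84.8 and 98.9 CPM in vts1 deletion (log2 fold change -1.14 ± 0.075, adjusted p = 4.62e-07). COX1, COX2, COX3 and COB, chosen after their values were seen, gave -0.70, -0.79, -0.78 and -0.91, whereas VAR1, the mitochondrial ribosomal protein, had 6.77 to 11.001 CPM in the inductants and 8.44 and 9.04 CPM in vts1 deletion and was not called. The share of all counts in mitochondrial rows was 0.707% and 0.634% in inductant 1, 0.641% and 0.669% in inductant 2, and 1.14% and 1.19% in vts1 deletion. The intron-encoded rows overlap their host genes and share reads with them. The 5 HAP factors that activate respiratory genes were not called with both inductants averaged. In each induction taken alone, 1 of the 5 was called higher, beside 21.1% of all genes in inductant 1 and 19% in inductant 2. HAP4, a regulatory subunit, had 247 and 296 CPM in inductant 1 and 179 and 200.2 CPM in inductant 2. In vts1 deletion it had 194 and 206 CPM. HAP4 was called higher without replicate 1 of inductant 1 (0.25, adjusted p = 0.00857) and by DESeq2 (adjusted p = 0.0449).

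In the citric acid cycle the changes went both ways (7 of 20 higher and 5 lower, median -0.003). In the citrate cycle list the counts became 5 higher and 9 lower with library size alone and 6 and 3 without replicate 1 of vts1 deletion. The isocitrate dehydrogenase genes IDH1 and IDP1 were higher, at 0.46 and 0.43, as was fumarase FUM1 (0.27). The succinyl-CoA ligase subunits LSC1 and LSC2 were lower, at -0.60 and -0.55, as was malate dehydrogenase MDH1 (-0.44). Retrograde response genes, which rise when mitochondrial function is impaired, were higher in 7 of 10 and lower in 0 of 10, with a median of 0.31. In the retrograde list the counts became 4 higher and 1 lower with library size alone. Besides CIT2, these included DLD3, a cytosolic dehydrogenase of 2-hydroxyglutarate, with 695 and 607 CPM in inductant 1, 807 and 871 CPM in inductant 2, and 207 and 229.6 CPM in vts1 deletion (log2 fold change 1.76 ± 0.072, adjusted p = 1.99e-08). The regulators RTG1 and RTG2 of that response were not called (-0.10 and 0.064).

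More glycolytic genes and hexose transporter genes were called higher than lower. Of 33 glycolytic and fermentative genes, 19 were higher and 4 lower, with a median of 0.27, or 0.097 with library size alone, and a summed level of 111282 to 121912 TPM in the inductants and 97697 and 98925 TPM in vts1 deletion. In the glycolytic list the counts became 14 higher and 8 lower with library size alone, 19 and 7 without replicate 2 of inductant 1 and 16 and 2 without replicate 2 of vts1 deletion. HXK2, the main hexokinase and a mediator of glucose repression, had 2423 and 2596 CPM in inductant 1, 2473 and 2514 CPM in inductant 2, and 1085 and 1162 CPM in vts1 deletion (log2 fold change 1.16 ± 0.056, adjusted p = 4.18e-08). PYC2, pyruvate carboxylase, and TDH2, a glyceraldehyde-3-phosphate dehydrogenase, gave 0.59 and 0.64, while PFK27, which makes the glycolytic activator fructose 2,6-bisphosphate, gave -0.77. Of the hexose transporters, 6 of 17 were higher, 1 was lower and the others were not called; with library size alone 4 were higher and 2 lower, and their median of 0.21 became 0.033. HXT3, a low-affinity transporter used at high glucose, had 1971 to 2186 CPM in the inductants and 759 and 755 CPM in vts1 deletion (log2 fold change 1.47), and HXT1, of the same class, had 162 to 203 CPM in the inductants and 65.7 and 63.99 CPM in vts1 deletion (1.496). HXT7, a high-affinity transporter used at low glucose that shares reads with HXT6, was lower, with 403 and 419 CPM in inductant 1, 268 and 289 CPM in inductant 2, and 635 and 657 CPM in vts1 deletion (log2 fold change -0.93 ± 0.048). HXT6 had 90.0 and 123 CPM in inductant 1, 75.6 and 84.9 CPM in inductant 2, and 16.7 and 38.2 CPM in vts1 deletion and was not called (1.76, adjusted p = 0.0544). It was called by DESeq2 and limma, with all 8 libraries and without either deletion library, at log2 fold changes of 1.28 to 2.47 (adjusted p = 0.000243 to 0.0262). Regulators of glucose repression were called at about the share of all genes (5 of 24 higher and 5 lower, 20.8% higher and 20.8% lower), with the repressor MIG3 at 1.16, MIG1 at -0.28 and the kinase SNF1 at -0.44; the list's median of 0.062 became -0.11 with library size alone. In the glucose repression list the counts became 3 higher and 11 lower with library size alone, 6 and 3 without replicate 1 of inductant 2, 3 and 5 without replicate 2 of inductant 2, 3 and 2 without replicate 1 of vts1 deletion and 3 and 3 without replicate 2 of vts1 deletion.

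The acetate branch (2 of 8 higher and 4 lower) split between isozymes. ALD4, the main mitochondrial acetaldehyde dehydrogenase, fell with ALD6 and ALD3 (-0.95), whereas ALD5, the minor mitochondrial one, and ACS2, the acetyl-CoA synthetase used on glucose, rose (0.86 and 0.69). Storage carbohydrate genes were mainly lower or not called. The median of the glycogen list was -0.0835 in inductant 1 and -0.467 in inductant 2. That of the trehalose list was -0.1085 in inductant 1 and -0.365 in inductant 2, and these differences were not tested for the lists. Among 19 glycogen genes, 7 fell and 1 rose, with glycogen phosphorylase GPH1 at -0.84 and UDP-glucose pyrophosphorylase UGP1 at -0.67, and the phosphoglucomutase PGM1 higher (0.75). In the glycogen list the counts became 1 higher and 13 lower with library size alone. Among 7 trehalose genes, 5 fell and 0 rose, with TSL1, a regulatory subunit of the synthase complex, at -0.77 and TPS1, the synthase, at -0.41. In the trehalose list the counts became 0 higher and 3 lower without replicate 2 of vts1 deletion.

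**Figure D4:**
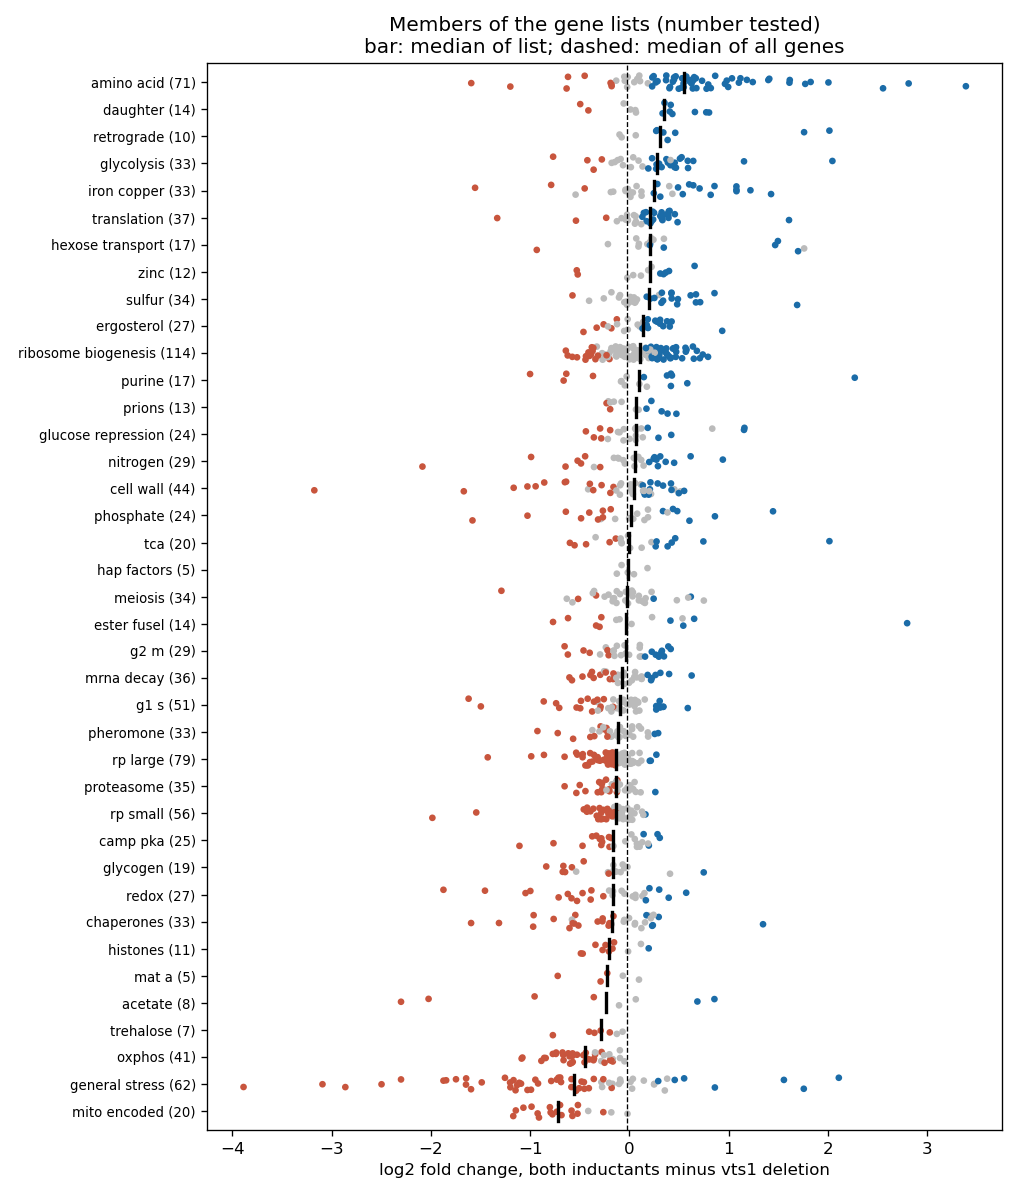
Log2 fold change of each tested member of the gene lists, both inductants minus vts1 deletion, with members called higher in blue, called lower in red and not called in grey; the thick bar is the list's median, the dashed line the median of all genes (-0.02) and the number in brackets the members tested. Amino acid synthesis has the highest median (0.55) and the mitochondrially encoded rows the lowest (-0.71).

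With both inductants averaged, ribosomal protein genes were called lower more often than higher, and ribosome biogenesis genes the other way. With library size alone, however, more ribosome biogenesis genes were lower than higher. Of 79 large subunit genes, 39 were lower and 3 higher, and of 56 small subunit genes, 25 were lower and 1 higher, with medians of -0.13 and -0.14. With library size alone 68 and 50 were lower and 0 higher, and the medians were -0.31 and -0.32. Without replicate 1 of vts1 deletion the falls numbered 20 and 13, and without replicate 2 they numbered 23 and 15. The large subunit rises numbered 5 without replicate 2 of inductant 2 and 1 without replicate 2 of vts1 deletion, and the small subunit rises 3 without replicate 2 of inductant 2. Inductant 1 alone had 58 of 79 large subunit genes lower and 2 higher, and 36 of 56 small subunit genes lower and 0 higher. Inductant 2 alone had 12 large subunit genes lower and 7 higher, and 9 small subunit genes lower and 4 higher. Of all genes, 20.6% were lower and 21.1% higher in inductant 1, and 17.4% and 19% in inductant 2. The medians of the large and small subunit genes were -0.25 and -0.23 in inductant 1 and -0.017 and -0.025 in inductant 2, a difference that was not tested for the lists. Single members fell much further: RPS9A had 19.0 to 45.8 CPM in the inductants and 83.7 and 85.1 CPM in vts1 deletion (log2 fold change -1.54) beside -0.30 for its paralog RPS9B, and RPL22B had 6.22 to 15.1 CPM in the inductants and 27.0 and 24.1 CPM in vts1 deletion (-1.43) beside -0.13 for RPL22A, which was called only without replicate 2 of vts1 deletion (-0.36, adjusted p = 0.0263). Of 114 ribosome biogenesis genes, 45 were higher and 16 lower; their median of 0.10 became -0.073 with library size alone. In the ribosome biogenesis list the counts became 23 higher and 38 lower with library size alone, 39 and 10 without replicate 1 of vts1 deletion and 29 and 11 without replicate 2 of vts1 deletion. Within that list RPA135 and RPA190, the large subunits of RNA polymerase I, had the largest fold changes (0.79 and 0.74). Of 37 translation factors, 23 were higher and 3 lower (median 0.21). In the translation list the counts became 14 higher and 9 lower with library size alone. SUI1, the initiation factor that guards start codon choice, was lower, with 24.4 and 23.0 CPM in inductant 1, 33.1 and 31.1 CPM in inductant 2, and 68.4 and 70.4 CPM in vts1 deletion (log2 fold change -1.33 ± 0.070, adjusted p = 8.39e-08), and ANB1, the form of eIF5A used at low oxygen, was higher, with 7.46 to 12.2 CPM in the inductants and 2.69 and 3.55 CPM in vts1 deletion (log2 fold change 1.61).

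Protein quality control genes were lower on balance. Of 33 chaperone genes, 16 fell and 5 rose (15.2% higher and 48.5% lower; median -0.18). In the chaperone list the counts became 2 higher and 20 lower with library size alone, 2 and 13 without replicate 1 of vts1 deletion and 1 and 13 without replicate 2 of vts1 deletion. The stress-induced HSP70 gene SSA4 had 31.9 to 39.1 CPM in the inductants and 109.6 and 106 CPM in vts1 deletion (log2 fold change -1.59), and HSP26, SSA1, SSE2 and HSP82 gave -1.31, -0.97, -0.96 and -0.76. BTN2, which sorts misfolded proteins into deposits and acts against some prions, rose, with 31.6 and 27.6 CPM in inductant 1, 27.2 and 34.9 CPM in inductant 2, and 12.8 and 10.9 CPM in vts1 deletion (log2 fold change 1.35 ± 0.13, adjusted p = 1.03e-05). HSP104, the disaggregase on which most yeast prions depend, had 1116 and 1102 CPM in inductant 1, 664 and 822 CPM in inductant 2, and 998 and 1057 CPM in vts1 deletion and was not called (log2 fold change -0.18); leaving out replicate 2 of inductant 2 gave -0.26 with an adjusted p of 0.000992, and library size alone gave -0.35 with an adjusted p of 0.0103. Of 35 proteasome genes, 17 fell and 1 rose (median -0.14), with their activator RPN4 at -0.50. In the proteasome list the counts became 0 higher and 30 lower with library size alone, 0 and 11 without replicate 1 of vts1 deletion and 1 and 9 without replicate 2 of vts1 deletion. Of 27 redox genes, 12 fell and 5 rose, including the glutathione peroxidase GPX2 (-1.45), the glutaredoxin GRX2 (-1.05) and the superoxide dismutase SOD1 (-0.47), and on the other side CCS1 (0.57), the copper chaperone that loads Sod1. In the redox list the counts became 1 higher and 18 lower with library size alone, 2 and 11 without replicate 1 of vts1 deletion and 3 and 10 without replicate 2 of vts1 deletion.

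Several cell cycle genes that differed act at Start, the commitment to a new cycle in G1. CLN1, a G1 cyclin, had 62.2 and 63.9 CPM in inductant 1, 60.8 and 61.9 CPM in inductant 2, and 175 and 176 CPM in vts1 deletion (log2 fold change -1.497 ± 0.048, adjusted p = 2.03e-09), and PCL1, a G1 cyclin of the Pho85 kinase, had 26.5 to 32.6 CPM in the inductants and 99.3 and 85.6 CPM in vts1 deletion (log2 fold change -1.62). CLN2, CLN3 and PCL2 gave -0.71, -0.42 and -0.86, and WHI5, the inhibitor of Start, rose (0.59). Of 51 genes of the G1/S list, 16 fell and 8 rose (15.7% higher and 31.4% lower). In the G1/S list the counts became 3 higher and 33 lower with library size alone. Of 29 G2/M genes, 6 fell and 9 rose (31.0% higher and 20.7% lower), with the mitotic cyclin CLB1 at -0.62 and the kinase CDC28 at -0.65. In the G2/M list the counts became 2 higher and 16 lower with library size alone, 4 and 4 without replicate 1 of vts1 deletion and 6 and 3 without replicate 2 of vts1 deletion. Of 14 daughter cell separation genes, 8 rose and 2 fell (median 0.34), with the chitinase CTS1 at 1723 to 2019.6 CPM in the inductants and 1081 and 1083 CPM in vts1 deletion (log2 fold change 0.77), and DSE2 at 0.66. In the daughter-cell list the counts became 7 higher and 4 lower with library size alone. ASH1, the daughter-specific repressor, fell (-0.50). Of 11 histone genes, 8 fell and 1 rose, led by HHF1 at -0.49. In the histone list the counts became 0 higher and 5 lower without replicate 1 of vts1 deletion and 1 and 3 without replicate 2 of vts1 deletion.

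Of 44 cell wall genes, 12 were higher and 13 lower (27.3% higher and 29.5% lower, beside 21.8% and 22.4% of all genes). In the cell wall list the counts became 6 higher and 18 lower with library size alone and 5 and 11 without replicate 2 of vts1 deletion. The 13 that fell included the mannoproteins CWP1, TIP1, CWP2 (-1.17), PIR3 (-1.03) and SED1 (-0.94), and the rises included the glucan synthase GSC2 (0.50). The median of 0.047 became -0.13 with library size alone. Of 33 pheromone response genes, 10 fell and 2 rose, led by FAR1 (-0.93), which arrests the cycle in G1 on pheromone. In the pheromone list the counts became 0 higher and 19 lower with library size alone, 4 and 12 without replicate 1 of inductant 1 and 0 and 4 without replicate 1 of vts1 deletion. Of the MATa markers, STE2 had 182 to 245 CPM in the inductants and 249 and 245 CPM in vts1 deletion (log2 fold change -0.22), a call lost without either deletion library (adjusted p = 0.0698 and 0.0512), and BAR1 gave -0.29.

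In the cyclic AMP pathway, inductant 1 alone had 8 of 25 genes lower and 6 higher than vts1 deletion (median -0.0455). Inductant 2 alone had 11 lower and 1 higher (median -0.1736). Of all genes, 20.6% were lower and 21.1% higher in inductant 1, and 17.4% and 19% in inductant 2. With both inductants averaged, 12 fell and 4 rose (16.0% higher and 48.0% lower, beside 21.8% and 22.4% of all genes, median -0.16). In the cyclic AMP list the counts became 0 higher and 15 lower with library size alone, 1 and 9 without replicate 1 of vts1 deletion and 2 and 9 without replicate 2 of vts1 deletion. RGS2, which switches off the glucose receptor's G protein, had 17.2 to 25.3 CPM in the inductants and 48.5 and 42.8 CPM in vts1 deletion (log2 fold change -1.11), PDE2 is given above, and BCY1, the inhibitory subunit of the cyclic AMP-dependent kinase, gave -0.30. SRV2, a partner of adenylate cyclase, rose (0.28), a call lost with library size alone (0.11, adjusted p = 0.0793). Of 36 mRNA decay genes, 11 fell and 7 rose (19.4% higher and 30.6% lower). In the mRNA decay list the counts became 2 higher and 21 lower with library size alone, 4 and 6 without replicate 1 of vts1 deletion and 6 and 5 without replicate 2 of vts1 deletion. The deadenylase CCR4 was slightly higher, with 218 and 227 CPM in inductant 1, 210.4 and 211 CPM in inductant 2, and 183 and 178 CPM in vts1 deletion (log2 fold change 0.26 ± 0.047, adjusted p = 0.000869), a call lost with library size alone (0.087, adjusted p = 0.168), while POP2, CDC39 and the exonuclease XRN1 gave 0.025, -0.058 and -0.053 and were not called, although CDC39 and XRN1 were called lower with library size alone (-0.23 each, adjusted p = 0.000977 and 0.000821). The decapping subunit DCP1 and the Lsm ring subunit LSM4 fell (-0.60 and -0.58), and the Pumilio proteins JSN1 and PUF4 rose (0.63 and 0.40). Of 13 genes of known yeast prion proteins, 5 rose and 2 fell, with SWI1 at 0.47 and RNQ1 at 0.38; their median of 0.067 became -0.11 with library size alone. In the prion list the counts became 3 higher and 6 lower with library size alone and 3 and 0 without replicate 2 of vts1 deletion. Of 34 meiotic genes, 2 rose and 3 fell, and IME1, the master regulator of meiotic entry, had 6.89 to 7.83 CPM in the inductants and 6.93 and 9.49 CPM in vts1 deletion and was not called. In the meiotic list the counts became 0 higher and 7 lower with library size alone, 4 and 3 without replicate 2 of inductant 1 and 0 and 1 without replicate 1 of vts1 deletion.

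Nutrient and lipid genes showed smaller sets of differences. Of 33 iron and copper genes, 15 rose and 3 fell (median 0.25). In the iron and copper list the counts became 12 higher and 6 lower with library size alone. The siderophore transporters ENB1 and ARN2 rose (1.43 and 1.22), and the copper transporter CTR1 fell, with 43.2 to 54.5 CPM in the inductants and 126 and 154 CPM in vts1 deletion (log2 fold change -1.55). The metallothionein copies CUP1-1 and CUP1-2, which have identical values because they share reads, gave 1.08. Of 34 sulfur genes, 17 rose and 1 fell, with STR3 at 1.69 and the S-adenosylmethionine synthetase SAM2 at 0.86. In the sulfur list the counts became 10 higher and 8 lower with library size alone. Of 27 ergosterol genes, 14 rose and 5 fell, with the activator ECM22 at 0.94, and the median of 0.14 became -0.038 with library size alone. In the ergosterol list the counts became 5 higher and 9 lower with library size alone, 8 and 3 without replicate 1 of vts1 deletion and 9 and 2 without replicate 2 of vts1 deletion. Of 24 phosphate genes, 6 rose and 9 fell, with the acid phosphatase PHO12 at 1.45 and PHM6 at -1.58. In the phosphate list the counts became 6 higher and 5 lower without replicate 1 of vts1 deletion. Of 12 zinc genes, 5 rose and 2 fell, with the transporter ZRT1 at 0.66. In the zinc list the counts became 3 higher and 3 lower with library size alone. Of 29 nitrogen genes, 10 rose and 7 fell, with the ammonium permease MEP1 at 0.62 and PUT2, of proline breakdown, at -0.64, and the median of 0.052 became -0.12 with library size alone. In the nitrogen list the counts became 3 higher and 9 lower with library size alone, 5 and 7 without replicate 1 of vts1 deletion and 6 and 6 without replicate 2 of vts1 deletion. Of 17 purine genes, 7 rose and 4 fell. In the purine list the counts became 6 higher and 8 lower with library size alone. ADE17 had 490.4 to 909 CPM in the inductants and 1319.5 and 1271 CPM in vts1 deletion (log2 fold change -1.001) and ADE3 gave 0.58; the median of 0.10 became -0.077 with library size alone. Of 14 ester and fusel alcohol genes, 4 rose and 5 fell, with the aromatic aminotransferase ARO9 and decarboxylase ARO10 of the fusel route at -0.62 and -0.77 opposite to EEB1. In the ester and fusel list the counts became 5 higher and 3 lower without replicate 1 of vts1 deletion and 4 and 3 without replicate 2 of vts1 deletion.

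Each induction alone gave calls against the same 2 deletion libraries. Inductant 1 had 2590 (41.7%) and inductant 2 had 2261 (36.4%). Of these, 1785 genes were called in both with the same sign and 3 with opposite signs, AGP1, YCR024C-B and RPL12A; since both comparisons share the deletion libraries, the count is given as a description. Inductant 1 minus inductant 2 gave 316 calls (5.09%), 2.64% higher and 2.45% lower in inductant 1. The general stress list was lower in 33 genes and higher in 11 in inductant 1 and lower in 42 and higher in 3 in inductant 2, against backgrounds of 20.6% lower and 21.1% higher in inductant 1 and 17.4% lower and 19.0% higher in inductant 2. HSP12 fell further in inductant 2, with log2 fold changes of -3.49 in inductant 1 and -4.28 in inductant 2 (adjusted p of the difference = 0.0123), while the amino acid list had medians of 0.56 in both.

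Genes with a predicted Vts1 hairpin had fold changes close to those of the other genes. Coding sequences of 419 of 5735 genes (7.31%) held the loop CNGG, followed by up to 3 further loop bases and closed by 5 Watson-Crick pairs. Their median log2 fold change was 0.011 beside -0.017 for the 5316 genes without one. They were called higher in 25.3% and lower in 24.3% of cases, against 22.8% and 23.2% of genes without one. A control loop with the letters GGNC, found in 348 genes, had a median of 0.027, with 28.7% called higher and 23.6% lower. Genes with the CNGG hairpin had longer coding sequences (median 1857 against 1201.5 bases) and higher levels (median 63.3 against 42.0 CPM), and the part of length and level in these shares was not tested. Stems of 4 and of 6 pairs gave medians of 0.024 and 0.001. The windows hold coding bases only, so hairpins in untranslated regions were not searched.

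**Figure D5:**
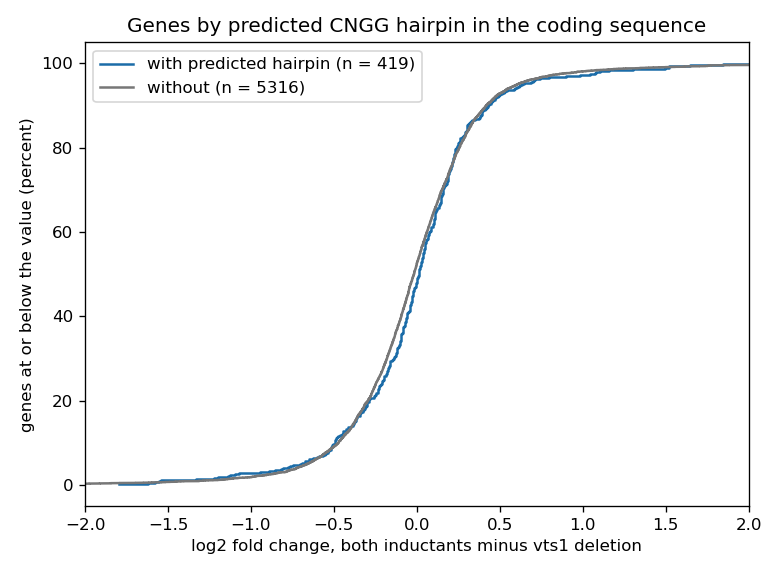
Cumulative share of genes (percent, y axis) at or below each log2 fold change of both inductants minus vts1 deletion (x axis, cropped at -2 and 2), for the 419 genes with a predicted CNGG hairpin in the coding sequence (blue) and the 5316 without (grey). The curves lie close together, with medians of 0.011 and -0.017.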

How the data were processed

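RNA from 6 yeast cultures was sequenced after ribosomal RNA removal, and per the submitters' processing notes reads were assigned to open reading frames with kallisto against R64. No version, strand setting or trimming step is given in the sources used here. The authors deposited estimated counts and TPM for 6713 rows per library. Of the estimated counts, 83.2% to 83.8% were whole within 1e-06 in these 6 libraries, and kallisto divides reads that match several copies among them. Row lengths were multiples of 3 for 99.97% of rows, so they are coding lengths. TPM, scaled by effective length by the authors, were used for summed levels and for limma.

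Estimated counts were rounded and fitted with edgeR 4.0.16 in R 4.3.3, with TMM factors, filterByExpr and the robust quasi-likelihood test. The model had 1 mean per group, which left 3 residual degrees of freedom, and the common spread between replicates, as edgeR's coefficient of variation, was 0.0773. The contrast was the mean of the 2 inductant groups minus vts1 deletion. P-values were adjusted by Benjamini-Hochberg over 6214 genes, and every adjusted p in the text is from such a fit unless another tool is named. A standard error is the size of the log2 fold change divided by the square root of its F statistic. The upper limit for 0 observed counts was set at 3 counts. Within each group the pair of libraries differed beyond counting error (chi-square per degree of freedom 20.5 in inductant 1, 12.3 in inductant 2 and 5.448 in vts1 deletion), so none was counted as a duplicate. The depth of 18431474 to 27501966 counts limits precision for rare transcripts, and intervals cover counting error only.

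Alternatives were DESeq2 1.42.0, limma 3.58.1 on log2(TPM + 1), RLE factors, library size only, no filter, all 8 libraries, mitochondrial rows left out, a replicate block, a test against 1.5-fold and each library left out in turn. The naive libraries entered only the fit of all 8. The edgeR fit was tested on simulated data. Names, coordinates and sequences are from RefSeq build R64, which matched 6026 of 6713 rows; the other 687 keep the name in the files. Hairpins were searched in 5735 coding sequences and motifs in 5711 promoter windows of tested genes.

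The genes named come, by rule, from the 15 largest rises and the 15 largest falls among called genes whose groups did not overlap and whose higher group averaged at least 5 CPM, up to 4 called members each way of each of 42 lists, VTS1, its 3 neighbours on each side, YIR016W and the auxotrophic markers. Some genes that the rule selects are not reported here. Other genes were added for their role or after their values were seen. The members and the lists were chosen with earlier results of these data known.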

Additional observations from a re-analysis of the deposited data

Results flagged for a closer look

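For 37 of the genes named, the contrast of inductant 1 minus inductant 2 was called in the same edgeR fit. All 37 were called in the contrast of the averaged inductants minus vts1 deletion, which does not require a call in each induction. Their difference from vts1 deletion thus differed between the inductions, and for some it was small in 1 induction. MSN4 gave -0.0455 against vts1 deletion in inductant 1, and STE2 gave -0.0644 in inductant 2. The background for this contrast was 5.09% of genes tested. The values that follow are log2 differences of inductant 1 minus inductant 2.

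For the following stress, chaperone and storage genes, most of which were lower than in vts1 deletion, inductant 1 lay above inductant 2. The difference was 0.79 for HSP12, 0.68 for RTN2, 0.54 for ALD3, 0.55 for ALD4, 0.54 for GPH1 and 0.33 for TPS1. It was 0.34 for SSA1, 0.43 for SSE2, 0.53 for HSP82, 0.49 for HSP30, 0.38 for GRX2 and 0.46 for MSN4. HSP30 was the one of these that was higher in the inductants than in vts1 deletion. The difference was also positive for HXT7 (0.56), MDH1 (0.29), BCY1 (0.26), the wall protein PIR3 (0.97), URA2 (0.42) and HIS3 (0.38).

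For some synthesis and retrograde genes that were higher than in vts1 deletion, inductant 1 lay below inductant 2, opposite to HIS3 and URA2. The difference was -0.70 for ARG3, -0.25 for BAT1, -0.21 for LEU1, -0.26 for LEU9, -0.37 for DLD3 and -0.23 for IDH1. It was -0.50 for EEB1, -0.49 for IMD2 and -0.32 for SWI1. Inductant 1 also lay below inductant 2 for genes lower than in vts1 deletion, with differences of -1.01 for RPL22B, -0.90 for RPS9A, -0.33 for RPS9B, -0.44 for SUI1, -0.57 for CLB1, -0.39 for GCV2, -0.37 for ATP6, -0.34 for ALD6 and -0.32 for STE2. CLB1 gave log2 fold changes against vts1 deletion of -0.90 in inductant 1 and -0.34 in inductant 2.

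YLL067C gave 8.16, a fitted value that rests on inductant 2 libraries at 0 and 0.050 CPM, depends on the prior count and is no bound. Of the 37 differences, 9 were called in each of the 6 fits that left out 1 library. With all 8 libraries in the fit, those of ALD4, CLB1, HSP30, HXT7, MSN4, SSE2 and YLL067C were still called. The replicate libraries of the inductions differed from each other by more than sampling noise, and the part of single cultures in these differences was not tested.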

How the results depend on the processing

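Of 163 named genes called in the averaged contrast of both inductants against vts1 deletion, 147 kept their call and direction in every alternative counted. The test against a 1.5-fold change was left out of this count. Library size only turned PRT1 to -0.030 and RPL12A, not called otherwise, to -0.16. All genes called numbered 2254 (limma) to 3236 (library size only) in the alternatives that kept 6 or 8 libraries and no size threshold, beside 2752. The counts moved by more than 1.5 times in these cases. The test against a 1.5-fold change left 241 calls, 111 higher and 130 lower, because it asks for a larger difference. Library size only gave 648 higher and 2588 lower. Leaving out each library in turn gave 1733 to 2703 calls, 918 to 1399 higher and 815 to 1351 lower, the lowest without either deletion library; there the lone deletion library is assumed to vary like the other groups. The same fits gave 1641 to 2656 calls for inductant 1 and 1436 to 2351 for inductant 2. The difference between the inductions was least stable, with 55 to 594 calls beside 316 when 1 library was left out (55 without replicate 2 of inductant 1, 62 without replicate 1 of inductant 2), 28 with all 8 libraries and 1 with limma on log2(TPM + 1); the cause was not tested.

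Counts of lists are given here as higher and then lower. The test against a 1.5-fold change left 3 and 21 of the general stress list and 23 and 2 of the amino acid list. It left 0 and 2 of the oxidative phosphorylation list, 0 and 7 of the mitochondrially encoded rows and 2 and 1 of the glycolytic list. For the large and small ribosomal subunits it left 0 and 3 and 0 and 2. It left 1 and 0 of the ribosome biogenesis list, 1 and 1 of the translation list and 0 and 0 of the proteasome list. The following counts under DESeq2, all 8 libraries and limma moved by more than 1.5 times. DESeq2 called 7 and 6 of the mRNA decay list, 5 and 3 of the glucose repression list. All 8 libraries called 6 and 7 of the mRNA decay list, 1 and 9 of the cyclic AMP list, 3 and 4 of the glucose repression list, 6 and 2 of the purine list, 1 and 5 of the histone list, 13 and 3 of the ergosterol list. With limma the calls were 6 and 6 of the mRNA decay list, 1 and 10 of the cyclic AMP list, 3 and 36 of the general stress list, 0 and 3 of the trehalose list, 3 and 4 of the glucose repression list, 16 and 2 of the glycolytic list, 50 and 5 of the amino acid list, 5 and 7 of the nitrogen list, 2 and 14 of the chaperone list, 3 and 11 of the redox list, 6 and 12 of the cell wall list, 0 and 11 of the pheromone list, 14 and 5 of the iron and copper list, 8 and 4 of the ergosterol list, 4 and 3 of the meiotic list.

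With a replicate block the calls numbered 2768 for both inductants, 1373 higher and 1395 lower, 2600 for inductant 1, 2338 for inductant 2 and 364 for the difference. The block also called HAP4 (adjusted p = 0.0173), HSP104 (0.0465) and HXT6 (0.0299). Replicate numbers did not pair the samples: the differences of replicate 1 and replicate 2 correlated across genes at -0.0194 between inductant 1 and inductant 2, at 0.109 between inductant 1 and vts1 deletion and at -0.0308 between inductant 2 and vts1 deletion. With 2 deletion libraries, small differences rest on few cultures, and transcripts near 3 counts cannot be compared.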

Other observations

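The genes below were chosen after their values were seen, most of them because their share of all counts differed furthest between the groups. URA2, the enzyme of the first 2 steps of pyrimidine synthesis, took 1.10% of counts in the inductants and 0.470% in vts1 deletion. It had 12457 and 13731 CPM in inductant 1, 9112 and 10416 CPM in inductant 2, and 4375 and 4294 CPM in vts1 deletion (log2 fold change 1.38 ± 0.073, adjusted p = 8.39e-08), and the groups did not overlap. BY4741 lacks URA3, a later enzyme of the same pathway, in all groups. HIS3, of histidine synthesis, which BY4741 carries with an internal deletion, had 65.2 and 62.1 CPM in inductant 1, 45.6 and 52.2 CPM in inductant 2, and 29.8 and 30.0 CPM in vts1 deletion (log2 fold change 0.90 ± 0.080, adjusted p = 4.51e-06). OAC1, a mitochondrial oxaloacetate carrier, had 73.2 to 82.5 CPM in the inductants and 20.8 and 23.3 CPM in vts1 deletion (log2 fold change 1.84). PMA1, the plasma membrane proton pump, and FAS2, a fatty acid synthase subunit, were higher, with 10173 to 11875 CPM in the inductants and 7009 and 6969 CPM in vts1 deletion (log2 fold change 0.66) and 6366 to 6876 CPM in the inductants and 3994 and 4016 CPM in vts1 deletion (0.70). PDC1, the main pyruvate decarboxylase, had 14851 to 17295 CPM in the inductants and 18662 and 18116 CPM in vts1 deletion and was not called (log2 fold change -0.18, adjusted p = 0.0593); its groups did not overlap. DESeq2 (adjusted p = 0.0282), library size alone (2.56e-05) and leaving out either inductant 1 library (0.0353 and 0.00179) called it lower.

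Several Ty retrotransposon rows were also among the largest share differences. YML045W had 3400.0 to 4113 CPM in the inductants and 1099 and 908 CPM in vts1 deletion (log2 fold change 1.88), and YDR365W-B and YER138C gave 0.60 and 0.39, the last without a call when replicate 2 of vts1 deletion was left out (adjusted p = 0.0797). Ty copies are nearly identical and share reads, so the value of any single copy is uncertain.

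YLL067C, a subtelomeric helicase-like row with near-identical copies elsewhere, had 9.19 and 7.89 CPM in inductant 1, 0 and 0.05 CPM in inductant 2, and 0 and 0 CPM in vts1 deletion. It was called in the comparison of both inductants with vts1 deletion (adjusted p = 0.0133), and its groups overlapped. Without replicate 2 of inductant 2 the call was lost (adjusted p = 1).

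The 3 genes called with opposite signs in the 2 inductions differed little when both were averaged. AGP1, an amino acid permease, gave log2 fold changes of 0.39 in inductant 1 and -0.30 in inductant 2, and RPL12A, a ribosomal protein gene, gave -0.16 in inductant 1 and 0.18 in inductant 2. YCR024C-B, given here with no role, gave -0.45 in inductant 1 and 0.39 in inductant 2.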
